A study of Mus musculus with 4 samples.

Results

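The enzymes described here are the phase II conjugation families of the mouse hepatocyte: UDP-glucuronosyltransferases (Ugt2 and Ugt3 genes), sulfotransferases (Sult1 to Sult6) and glutathione S-transferases (Gsta, Gstk, Gstm, Gsto, Gstp, Gstt and the membrane-bound Mgst genes). Members were taken by name. Each probe set assigned to a single gene whose symbol belongs to one of these families was kept, which gave 52 genes, each with 1 probe set, of 22180 named genes on the array. The cells were primary hepatocytes of male mice aged 2 months, either wild type (WT) or Chrebp-KO (KO; Chrebp is the gene Mlxipl). They were kept for 16 h in medium free of serum, to which 25 mM fructose had or had not been added; cells without it are called control. Each of the 4 groups was measured on 1 array, so no value has a replicate check and no test was made. How many mice gave the cells, and which part of the gene was deleted, are not given in the labels. In bulk cultures, fewer cells of a type and less RNA per cell cannot be told apart.

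Phase II enzymes attach a polar group to drugs, steroids, bile acids, bilirubin and lipid peroxidation products, so that these can leave the cell through efflux pumps. UGTs use UDP-glucuronic acid or another UDP-sugar, SULTs use the sulfate donor PAPS, and GSTs use glutathione. In liver their genes are known to be controlled by the nuclear receptors CAR and PXR, the aryl hydrocarbon receptor, NRF2 and the hepatocyte factor HNF4A. ChREBP is a transcription factor that responds to sugars and drives glycolysis and fat synthesis.

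All values are log2 expression per gene, and a difference of 1 is 2-fold. Mlxipl itself read 8.08 in WT control and 7.42 in KO control cells, and 8.43 and 7.37 in the cells given fructose, 1.58-fold and 2.09-fold lower in KO; whether its probes lie in the deleted part is not given. The background was 4.76, the 95th percentile of 1105 olfactory receptor genes taken as silent in these cells. Of the 52 members, 34 were above it on at least 1 array and 30 on all 4. The remaining 18 were 14 of the 21 sulfotransferases (among them Sult1b1, Sult1c1, Sult2b1, Sult4a1 and both Sult3 and both Sult6 genes) with Gsto2, Gstt4, Mgst2 and Ugt2b38, and no direction is given for these. Of 9 hepatocyte markers with a value, 8 were above background on all 4 arrays, with the albumin gene Alb between 12.58 and 12.66, whereas the urea cycle gene Ass1 was below background on all 4. With fructose some of these markers differed: the urea cycle gene Cps1 was 2.65-fold higher in WT and 2.63-fold in KO, Hpd, of tyrosine breakdown, 2.36-fold and 2.21-fold higher, and Hnf4a 1.68-fold and 1.42-fold lower. The medians of the hepatocyte markers with fructose were 0.24 and 0.23. Their part in the members' differences was not tested.

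The Ugt2 genes lie side by side on chromosome 5. The bases just before the start of 8 of them are shown to let these neighbouring copies be compared; the sequences were chosen after the values were seen, and nothing is drawn from them about the differences given afterwards. Each run covers bases -80 to -1 relative to the transcript start (RefSeq, build GRCm38.p6, 5′ to 3′ on the strand of the gene), and capitals mark AGGTCA, a motif bound singly or in pairs by many nuclear receptors.
Ugt2b36 (chr5:87092556-87092635, minus strand): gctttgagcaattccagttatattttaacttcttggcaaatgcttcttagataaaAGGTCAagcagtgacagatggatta
Ugt2b5 (chr5:87140341-87140420, minus strand): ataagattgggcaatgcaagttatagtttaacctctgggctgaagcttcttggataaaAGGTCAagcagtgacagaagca
Ugt2b37 (chr5:87254789-87254868, minus strand): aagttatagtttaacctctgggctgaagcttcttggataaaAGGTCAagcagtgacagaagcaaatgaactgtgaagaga
Ugt2b38 (chr5:87424204-87424283, minus strand): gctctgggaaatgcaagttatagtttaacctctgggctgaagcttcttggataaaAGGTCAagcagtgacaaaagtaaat
Ugt2b35 (chr5:87000780-87000859, plus strand): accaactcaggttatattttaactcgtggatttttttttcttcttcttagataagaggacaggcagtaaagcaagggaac
Ugt2b1 (chr5:86926504-86926583, minus strand): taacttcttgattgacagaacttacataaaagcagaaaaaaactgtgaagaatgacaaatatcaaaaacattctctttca
Ugt2b34 (chr5:86906938-86907017, minus strand): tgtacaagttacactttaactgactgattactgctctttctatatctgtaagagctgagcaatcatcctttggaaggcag
Ugt2a3 (chr5:87337196-87337275, minus strand): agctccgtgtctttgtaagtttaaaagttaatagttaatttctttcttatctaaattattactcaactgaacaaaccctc
The first 4 runs share gataaaAGGTCAagcagtgaca, 22 bases found in the windows of those 4 genes and of no other among the 27025 genes with a RefSeq promoter window (300 bases, 250 before to 50 after the start). Over the whole window, Ugt2b37 and Ugt2b38 were 91.0% identical, Ugt2b5 and Ugt2b38 87.0%, and Ugt2b37 and Ugt2b5 82.0%. Ugt2b36 was 65.7% identical to Ugt2b5 and to Ugt2b37. Ugt2b35, 63.0% identical to Ugt2b5, holds AGGTCA farther upstream, at -215, and Ugt2b1, Ugt2b34 and Ugt2a3 do not hold it in the window. A match describes letters and is not a binding site.

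Among the glucuronidation genes, Ugt2b36 and Ugt2b5 were at least 1.5-fold lower with fructose in WT cells with both values above background, and Ugt2b36 and Ugt2b35 in KO cells. Ugt2b36, of the 2B group that conjugates steroids and drugs, read 8.83 without and 7.13 with fructose in WT, and 8.87 and 7.99 in KO. It was 3.26-fold lower with fructose in WT and 1.84-fold lower in KO. The control arrays were alike, the WT fructose array was the lowest, and the KO fructose array lay between.

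Ugt2b5, another hepatic 2B enzyme, read 9.31 without and 8.44 with fructose in WT, and 9.11 and 8.86 in KO, which is 1.82-fold and 1.19-fold lower. Ugt2b37 read 4.83 and 3.98 in WT, and 5.07 and 5.16 in KO. The WT fructose value of Ugt2b37 lay below background, so its WT difference of -0.86 is given as at least 1.05-fold lower, and in KO the difference was 0.09. Ugt2b35 ran the other way between genotypes: it read 9.00 and 8.44 in WT, and 9.38 and 8.47 in KO, 1.48-fold lower in WT and 1.88-fold lower in KO.

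The other UGT genes differed little. Ugt2b1 read 11.23 without and 11.05 with fructose in WT, and 11.19 and 11.22 in KO. Ugt2b34 read 11.24 and 11.33 in WT, and 11.32 and 11.48 in KO, and Ugt2a3 differed with fructose by -0.19 in WT and 0.11 in KO.

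Both Ugt3 genes were close to 0 in WT. Ugt3a1, which uses UDP-N-acetylglucosamine, read 7.80 without and 8.00 with fructose in WT, and 7.78 and 8.20 in KO. Ugt3a2 read 10.89 and 10.66 in WT, and 10.78 and 10.62 in KO. The 9 UGT genes above background had a median difference with fructose of -0.24 in WT (7 of 9 below 0) and 0.03 in KO (4 of 9 below 0). Ugt2b37 counts in WT through its control array alone, so the filter fixed its sign there.

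**Figure D1:**
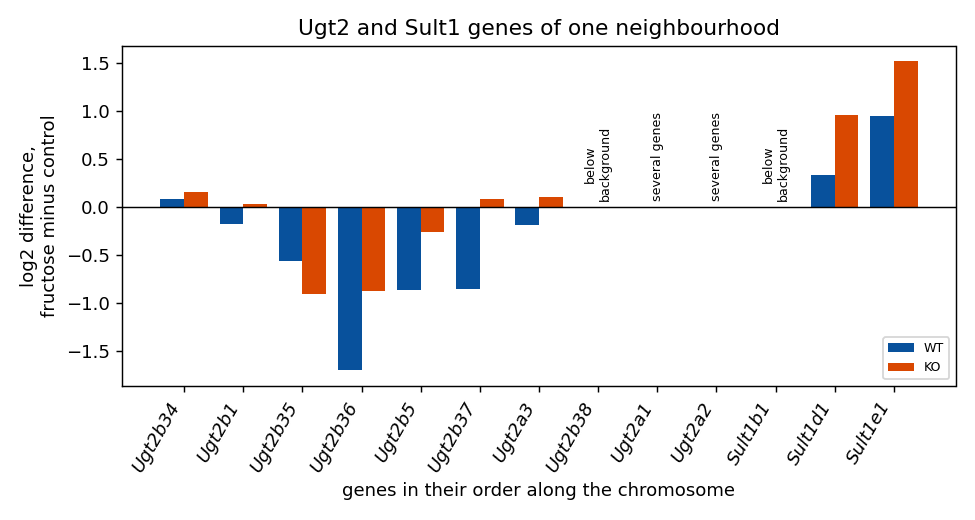
Bars give the log2 difference, fructose minus control, in WT and KO for 13 genes in their order along mouse chromosome 5, with 1 array per group and no error bars. Ugt2b36, Ugt2b5 and Ugt2b35 were lower in both genotypes and Ugt2b37 in WT (where its fructose value was below background), while Sult1d1 and Sult1e1 at the other end were higher; genes without bars were below background or have no probe set of their own.

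The Ugt1a genes, which include the bilirubin enzyme Ugt1a1, join alternative first exons to common exons, and both of their probe sets are assigned to several genes, so they are not among the 52 members. The probe set of 8 Ugt1a genes read 6.53 without and 6.20 with fructose in WT, and 6.66 and 6.35 in KO. The probe set of 5 Ugt1a genes read 6.35 and 6.34 in WT, and 6.91 and 6.78 in KO. The latter was thus 1.47-fold higher in KO than in WT without fructose and 1.37-fold higher with it, and neither probe set says which Ugt1a transcript was measured.

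Of the 21 sulfotransferases, 14 were below background on every array. In WT 6 were compared, of which 3 were at least 1.5-fold higher with fructose (beside 9.46% of all genes) and 0 lower (beside 10.8%). In KO 7 were compared, of which 4 were higher (beside 6.11%). In KO 1, Sult1c2, was lower by a reading below background (beside 5.75%). Sult1a1, the phenol sulfotransferase, read 6.71 without and 8.00 with fructose in WT, and 7.38 and 8.43 in KO. It was 2.46-fold higher with fructose in WT and 2.07-fold in KO, and the KO value was the higher of the pair in both media, by 1.60-fold in control and 1.35-fold in fructose medium. Sult2a8, a hepatic bile acid sulfotransferase, read 8.33 and 9.52 in WT, and 8.27 and 9.39 in KO. It was 2.27-fold higher with fructose in WT and 2.17-fold in KO, and the genotypes were alike.

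Sult1e1, the estrogen sulfotransferase, read 5.36 without and 6.31 with fructose in WT, and 4.84 and 6.37 in KO, which is 1.93-fold and 2.87-fold higher. Both fructose arrays were alike, and the KO control array was the lowest, just above background. Sult1d1, which sulfates catecholamines and other small phenols, read 7.45 and 7.78 in WT, and 7.55 and 8.51 in KO, 1.26-fold and 1.95-fold higher. Here the KO fructose array stood above the other arrays.

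The remaining sulfotransferases were dim. Sult5a1 read 4.71 without and 5.27 with fructose in WT, and 4.70 and 4.91 in KO, so it was above background on the fructose arrays alone. Sult2a5 read 4.89 and 4.90 in WT, and 4.84 and 4.88 in KO. Sult1c2 was the exception in direction, with 4.46 and 4.02 in WT, and 5.07 and 4.13 in KO. Only its KO control value was above background, so with fructose it was at least 1.23-fold lower in KO. Over the sulfotransferases above background, the median difference with fructose was 0.75 in WT (6 of 6 above 0) and 0.96 in KO (6 of 7 above 0), beside -0.03 and -0.004 over all genes above background. Sult5a1 counts here through its fructose arrays alone and Sult1c2 through its KO control array alone, so the filter fixed their signs. Sult2a5 differed by only 0.006 in WT and 0.05 in KO.

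Outside the Ugt2b group, Sult1e1, Sult2a8, Sult1b1, Gstk1 and Gstm1 also hold AGGTCA in a promoter window. Runs of Sult1e1 and Sult2a8 are shown, those of Sult1b1, Gstk1 and Gstm1 are not, and nothing is drawn from them about the differences. Sult1a1 and Sult1d1, also at least 1.5-fold higher with fructose in KO, do not hold AGGTCA in their windows. The Sult1e1 run covers -150 to -71, with the motif on the opposite strand (TGACCT), and the Sult2a8 run covers -180 to -71 of a later one of its listed windows. Capitals again mark the motif.
Sult1e1 (chr5:87591682-87591761, minus strand): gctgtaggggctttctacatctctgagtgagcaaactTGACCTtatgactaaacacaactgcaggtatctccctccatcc
Sult2a8 (chr7:14438622-14438731, minus strand): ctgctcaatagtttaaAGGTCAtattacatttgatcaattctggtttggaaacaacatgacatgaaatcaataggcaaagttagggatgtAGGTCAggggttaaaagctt
AGGTCA on either strand was in a window of 10 of the 45 members that have one (22.2%), beside 18.1% of 27025 genes. TGACNNNGC, the core of the antioxidant response element bound by NRF2, was in 3 of 45 (Gsta3, Gstm7 and Mgst1; 6.67%, beside 14.0%). GCGTG, the core bound by the aryl hydrocarbon receptor, was in 7 of 45 (15.6%, beside 35.2%). The E-box CACGTG was in 0 of 45 (beside 8.09%), which says only that these letters are not in these windows. Members share sequence, so these shares are descriptions.

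Of the 21 glutathione S-transferases, 17 were above background in the WT comparison and 18 in the KO comparison. With fructose in WT, 2 were at least 1.5-fold lower (Gsta4 and Gstp3, beside 10.8% of all genes) and 0 higher (beside 9.46%). In KO, 1 was higher (Gstm6, beside 6.11%) and 1 lower (Gstp3, beside 5.75%). The alpha-class gene Gsta4, whose enzyme conjugates the lipid peroxidation product 4-hydroxynonenal, read 10.12 without and 8.90 with fructose in WT, and 10.47 and 9.92 in KO. It was 2.33-fold lower with fructose in WT and 1.47-fold lower in KO, and the WT fructose array was the lowest. Gsta3 read 8.65 and 8.80 in WT, and 8.78 and 9.02 in KO.

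In the pi class, Gstp3 read 10.73 without and 9.77 with fructose in WT, and 10.73 and 9.81 in KO. It was 1.94-fold lower in WT and 1.90-fold lower in KO, so arrays of the same medium were alike whatever the genotype. Gstp1, a major liver GST, read 12.31 and 12.03 in WT, and 12.19 and 12.04 in KO.

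The mu-class genes lie together on chromosome 3 and differed in both directions. Gstm6 read 6.29 without and 6.86 with fructose in WT, and 6.39 and 6.99 in KO, 1.48-fold and 1.52-fold higher. Its neighbour Gstm7 differed by 0.41 and 0.45, and Gstm4, at the other end of the cluster, by -0.50 and -0.39. Gstm1 read 9.23 and 9.06 in WT, and 9.08 and 9.08 in KO. Gstm3 read 9.38 and 9.39 in WT, and 9.98 and 9.60 in KO, with KO control the highest array.

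In the theta class, whose enzymes also act on small halogenated compounds, the 3 genes above background had differences with fructose of -0.46 to -0.26 in WT and -0.51 to -0.22 in KO, and 0 of them passed 1.5-fold. Gstt1 read 8.48 without and 8.22 with fructose in WT, and 8.85 and 8.33 in KO, and Gstt2 read 5.63 and 5.17 in WT, and 5.77 and 5.50 in KO. Single genes of other classes differed little. Gstk1, the kappa-class enzyme of mitochondria and peroxisomes, read 8.74 and 9.10 in WT, and 8.78 and 8.94 in KO. Gsto1 of the omega class read 9.00 and 9.14 in WT, and 9.26 and 9.16 in KO.

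The membrane-bound Mgst1 read 10.55 without and 10.39 with fructose in WT, and 10.49 and 10.39 in KO. Mgst3 read 4.47 and 4.53 in WT, and 5.07 and 4.57 in KO, above background in KO control alone. Over all glutathione transferases above background, the median difference with fructose was -0.18 in WT (10 of 17 below 0) and -0.14 in KO (13 of 18 below 0). Mgst3 counts in KO through its control array alone, so the filter fixed its sign there.

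Close copies limit what single probe sets say in this group. Gsta1 and Gsta2 have no probe set of their own, and the 2 probe sets above background that name them also name predicted genes. That of Gsta1, Gm3776 and Gsta2 read 10.71 without and 9.57 with fructose in WT, and 10.78 and 10.37 in KO, 2.21-fold and 1.33-fold lower. That which also names Gm10639 read 11.80 and 11.06 in WT, and 11.92 and 11.69 in KO. In both, as in Gsta4, the WT fructose array was the lowest.

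The probe set assigned to Gstp2 read 10.02 without and 9.75 with fructose in WT, and 10.11 and 10.33 in KO, and its identity is uncertain. For 51 of the 52 members, all named neighbours in probe-set numbering lay on the chromosome of the gene. Of the 7 named neighbours of the Gstp2 probe set, 0 lay on chromosome 19, where Gstp1, Gstp2 and Gstp3 are. The chromosome most common among these neighbours was chromosome 1. The RefSeq gene order has a pseudogene, Gstp-ps, among the genes at that place on chromosome 1. A separate probe set assigned to Gstp1 and Gstp2 read 11.72 and 11.54 in WT, and 11.71 and 11.64 in KO. Probe sets of the Ugt2b, Gstm and Sult2a groups that are listed with 1 gene may still share probes with paralogs.

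**Figure D2:**
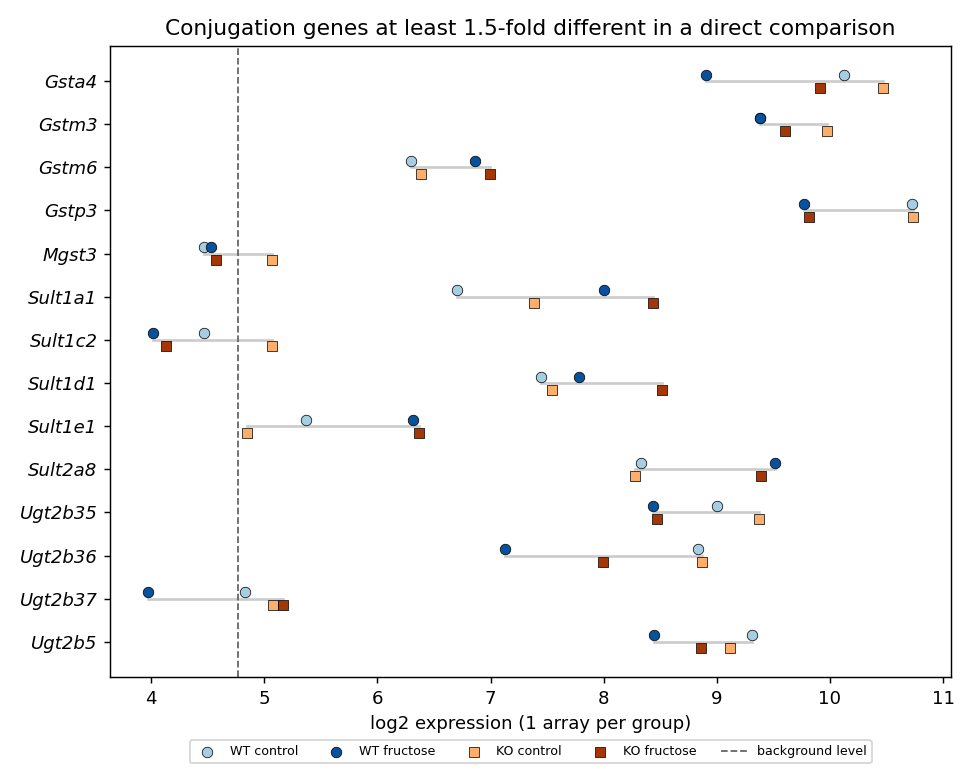
Points give the log2 expression of the members at least 1.5-fold different in a direct comparison on each of the 4 arrays (circles WT, squares KO, light control, dark fructose), and the dashed line is the background of 4.76. Sult1a1, Sult2a8 and Sult1e1 have both fructose arrays to the right of both control arrays, Gstp3 has them to the left, and Ugt2b36 and Gsta4 have their lowest point in WT fructose.

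With fructose in WT, 2 of the 32 members above background in that comparison were at least 2-fold higher (Sult1a1 and Sult2a8, 6.25%) and 2 at least 2-fold lower (Ugt2b36 and Gsta4, 6.25%). Among all 10814 genes above background, 3.1% were 2-fold higher and 3.01% lower. At 1.5-fold, 3 members were higher, with Sult1e1 added (beside 9.46% of all genes). At that threshold 5 were lower, with Gstp3, Ugt2b5 and Ugt2b37 added (beside 10.8%). Ugt2b37 counts here by its reading below background; with values raised to the background, 4 were lower (beside 10.2%) and 3 higher (beside 9.03%). Members ranged from -1.70 for Ugt2b36 to 1.30 for Sult1a1, with a median of -0.16.

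In KO, 3 of 34 members were at least 2-fold higher with fructose (Sult1a1, Sult1e1 and Sult2a8, 8.82%), beside 1.68% of 10752 genes, and 0 were 2-fold lower, beside 1.18%. At 1.5-fold, Gstm6 and Sult1d1 were also higher (5 in all, beside 6.11%), and Gstp3, Sult1c2, Ugt2b35 and Ugt2b36 were lower (4, beside 5.75%). Sult1c2 counts by a reading below background, and with values raised to the background 3 were lower (beside 5.43%) and 5 higher (beside 5.86%). The members' median was -0.05. The WT and KO differences come from separate arrays. Across the 34 members above background on any array the differences had a Pearson correlation of 0.81 and the same sign in 26 (76.5%). Over 11050 genes the correlation was 0.82 and 77.6% had the same sign, so in this respect the members were near the background. Members share sequence and arrays, and these are descriptions.

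**Figure D3:**
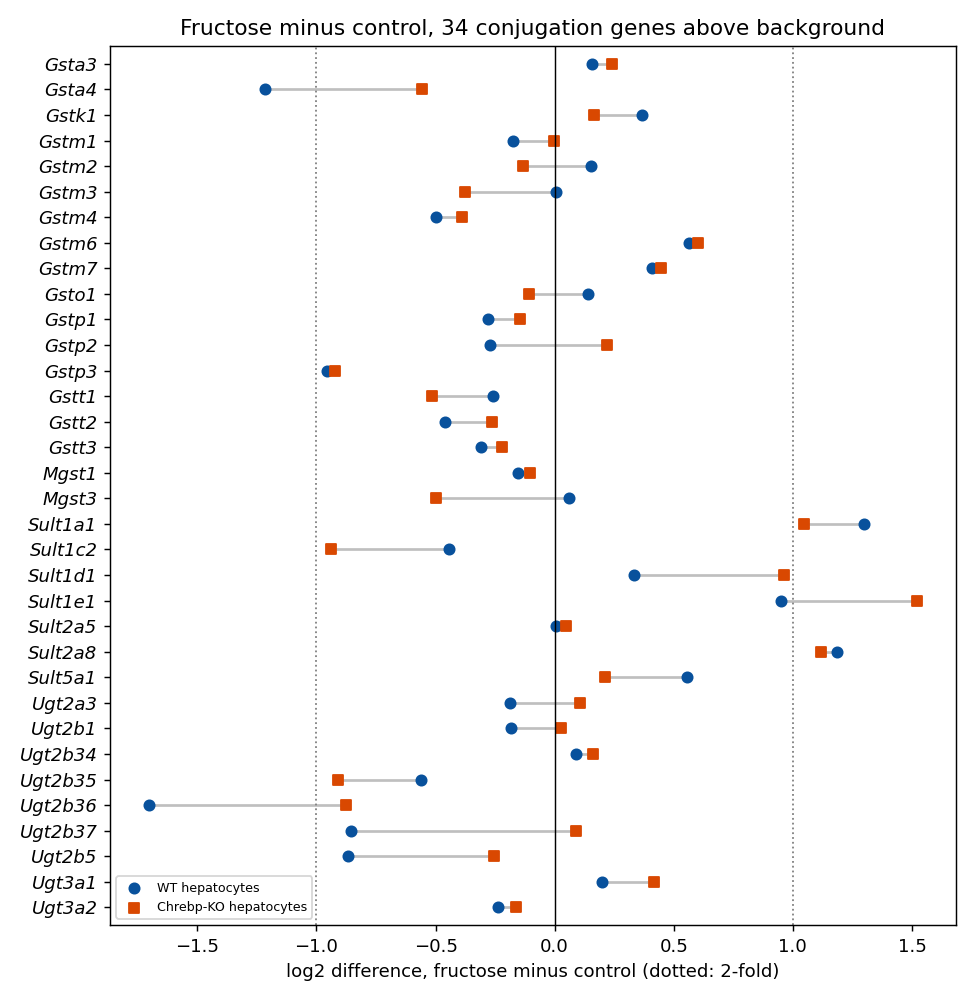
Each row is 1 of the 34 members above background on at least 1 array, with the log2 difference, fructose minus control, in WT (circle) and KO (square). Most sulfotransferases lie to the right of 0 in both genotypes, Sult5a1 among them through its fructose arrays alone. Ugt2b36, Ugt2b5, Gsta4 and Gstp3 lie to the left in WT, as does Ugt2b37 by a fructose value below background. For Sult1c2 and Mgst3 both WT values were below background, so their circles give no direction.

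Subtracting the WT fructose difference from the KO one gave values of at least 1.5-fold in the upward direction for 5 of 34 members (14.7%, beside 2.86% of 11050 genes) and in the downward direction for 0 (beside 2.6%). These were Ugt2b37 (0.94), Ugt2b36 (0.83), Gsta4 (0.66), Sult1d1 (0.63) and Ugt2b5 (0.61). At 2-fold there were 0 in either direction (beside 0.443% and 0.588%). Ugt2b36, Gsta4 and Ugt2b5 had the larger negative difference in WT, and Sult1d1 the larger positive one in KO. The 3 Ugt2b genes are similar neighbours, and the value of Ugt2b37 rests on a WT fructose level below background. With values raised to the background it was 0.16, and 4 members passed 1.5-fold upward (11.8%, beside 2.52%) and 0 downward (beside 2.23%).

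Between genotypes in control medium, 0 of 33 members were 2-fold different in either direction, beside 0.0373% of 10720 genes higher in KO and 0.196% lower. At 1.5-fold, 4 were higher in KO (12.1%, beside 0.476%) and 0 lower (beside 1.1%). Sult1a1 (1.60-fold) and Gstm3 (1.51-fold) were above background on both arrays. Mgst3 and Sult1c2 were below it in WT, entered the comparison through the KO array alone, and are given as at least 1.24-fold and 1.23-fold higher. With values raised to the background, Sult1a1 and Gstm3 were the 2 that passed 1.5-fold (6.06%, beside 0.373%), with 0 lower (beside 0.924%). The members' median was 0.08, beside -0.01 for all genes.

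In fructose medium, 2 of 32 members were at least 2-fold higher in KO (6.25%, beside 0.543% of 10688 genes) and 0 lower (beside 0.739%). Gsta4 was 2.02-fold higher. Ugt2b37, with a difference of 1.19, is given as at least 1.32-fold higher, and it no longer passed 2-fold when values were raised to the background. At 1.5-fold, Ugt2b36 (1.82-fold) and Sult1d1 (1.66-fold) were also higher (4 in all, beside 2.45%), with 0 lower (beside 2.86%). With values raised to the background, 3 passed 1.5-fold upward (Gsta4, Sult1d1 and Ugt2b36; beside 2.18%) and 0 downward (beside 2.6%). Of the 32, 25 were above 0, beside 52.5% of all genes. Ugt2b37 is among the 25 through its KO array alone, so the filter fixed its sign. The 7 Ugt2 genes above background had differences from 0.03 for Ugt2b35 to 1.19 for Ugt2b37, and 2 of them, Ugt2b36 and Ugt2b37, passed 1.5-fold. These arrays are also used in the fructose differences above.

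**Figure D4:**
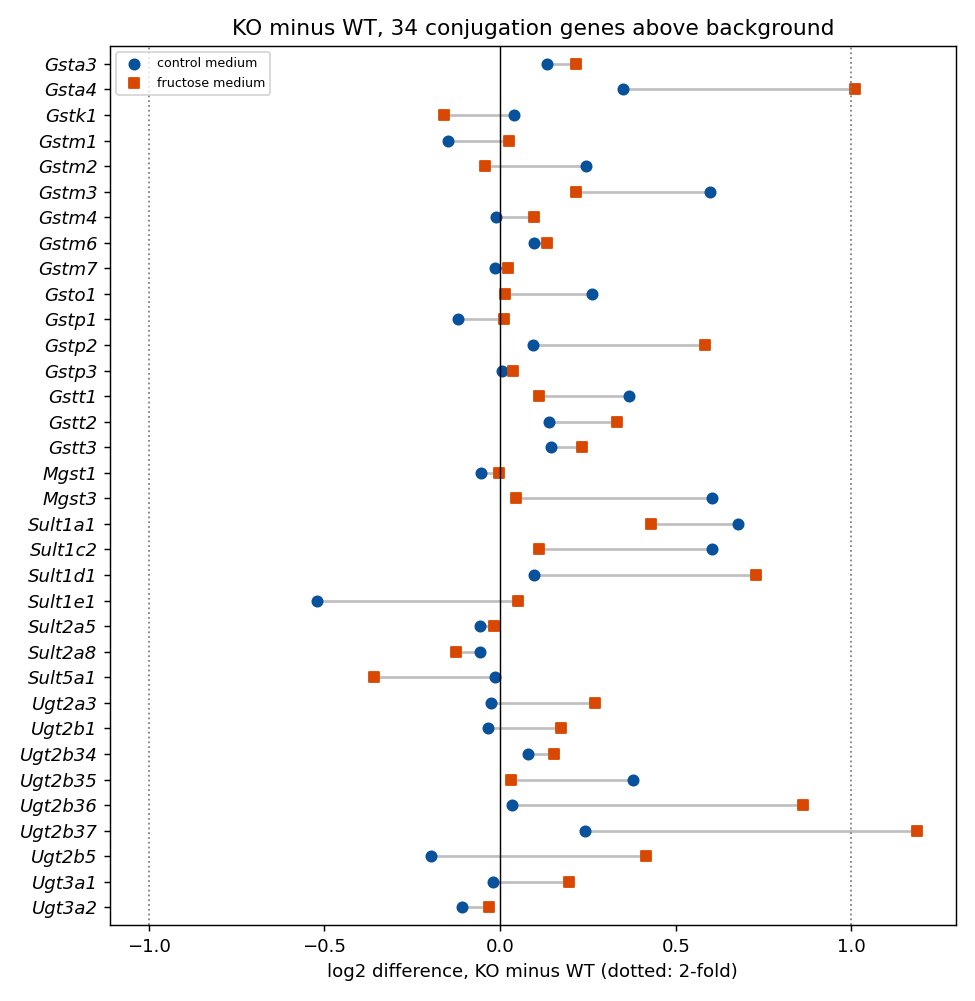
Each row is 1 of the 34 members above background on at least 1 array, with the log2 difference, KO minus WT, in control medium (circle) and fructose medium (square). The squares of Sult1c2 and Mgst3 and the circle of Sult5a1 compare values that were both below background, and give no direction. Gsta4 and Ugt2b37 (WT fructose value below background) pass the 2-fold mark in fructose medium, and Sult1e1 is the lowest point in control medium at -0.52.

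Markers of other liver cells also differed between the genotypes. Of 15 macrophage markers, 12 were above background on at least 1 array. Their median difference, KO minus WT, was -0.36 in control medium (10 of 11 below 0) and -0.57 in fructose medium (11 of 12 below 0). Their summed level, in log2, was 11.55 without and 11.35 with fructose in WT, and 11.45 and 11.52 in KO. This sum is carried by Cd68 (11.04 and 10.79 in WT, 11.12 and 11.22 in KO), which had the opposite sign to the other markers, such as Fcgr1 (2.38-fold and 2.05-fold lower in KO). With fructose the macrophage medians were 0.21 in WT and 0.09 in KO, with Cd5l at -0.91 and -0.78. Of 13 endothelial markers, 9 were above background. Their median difference, KO minus WT, was -0.46 in control medium and -0.31 in fructose medium. With fructose the endothelial medians were -0.11 in WT and -0.03 in KO. Their summed levels were 10.05 without and 9.89 with fructose in WT, and 9.57 and 9.54 in KO. Of 6 cholangiocyte markers with a value 4 (Krt7, Krt19, Epcam and Cftr) were below background on every array, as were 6 of 10 stellate markers. The other cholangiocyte markers were Cldn3 and Sox9. Cldn3 read 10.97 without and 10.07 with fructose in WT, and 10.84 and 10.68 in KO, with WT fructose the lowest array. Sox9 differed with fructose by 0.47 and 0.82. With the 4 others below background, Cldn3 and Sox9 are not taken here as a measure of cholangiocytes. Between genotypes the hepatocyte markers ranged from -0.12 to 0.20 in control medium and -0.13 to 0.24 in fructose medium. The part of other cells in the differences above was not tested.

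Genes that supply the cosubstrates were mixed. For glucuronidation, Slc35d1, which carries UDP-glucuronic acid into the endoplasmic reticulum, read 9.57 without and 8.40 with fructose in WT, and 9.57 and 8.92 in KO, 2.25-fold and 1.58-fold lower. Ugp2, which makes UDP-glucose, was 1.71-fold higher in WT and 1.59-fold in KO. The related carrier Slc35d2 was 1.55-fold lower in WT, and Gusb, the lysosomal glucuronidase, 1.53-fold lower in KO. Of the 6 genes listed, 1 was 2-fold lower (beside 3.01% of all genes) and 0 higher (beside 3.1%) in WT. In KO 0 passed 2-fold (beside 1.68% higher and 1.18% lower). Here and in the lists that follow, the genes are few and the counts are descriptions.

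For sulfation, Papss1, a PAPS synthase, read 5.96 without and 7.05 with fructose in WT, and 6.18 and 6.74 in KO, 2.13-fold and 1.48-fold higher. The sulfate carrier Slc26a2 was 1.71-fold higher in WT and 1.14-fold in KO, and Tpst1, a protein-tyrosine sulfotransferase, 1.51-fold higher in WT. Bpnt1, which breaks down the by-product PAP, was 1.79-fold lower in WT and 1.66-fold lower in KO. Slc26a1, another sulfate carrier, was 1.53-fold lower in KO than in WT in fructose medium. Of 9 genes with a value, 1 was 2-fold higher (beside 3.1% of all genes) and 0 lower (beside 3.01%) in WT. In KO 0 passed 2-fold (beside 1.68% higher and 1.18% lower). The medians were 0.36 and 0.11.

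For glutathione, Gclc and Gclm, which form the rate-limiting synthesis enzyme, differed by 0.21 and 0.42 in WT and 0.12 and 0.34 in KO. Chac1, which degrades glutathione, was 4.62-fold higher with fructose in WT and 2.19-fold in KO, and 2.58-fold lower in KO than in WT in fructose medium. Slc7a11, the cystine importer, was 1.96-fold higher in WT and 1.52-fold in KO. Oplah, which recycles 5-oxoproline, was 1.88-fold lower and Ggt6 1.82-fold lower in WT, and Ggct was 1.65-fold higher in KO. Glutaredoxin, Glrx, was 1.72-fold lower in KO than in WT in control medium. Of 18 genes with a value, 1 was 2-fold higher in each genotype (Chac1, beside 3.1% of all genes in WT and 1.68% in KO). In each genotype 0 were 2-fold lower (beside 3.01% and 1.18%), and the medians were 0.06 and 0.20.

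Among other conjugating enzymes, Inmt, an indolethylamine methyltransferase, was 3.47-fold higher with fructose in WT and 2.76-fold in KO. Acsm1, an acyl-CoA synthetase, was 1.80-fold and 1.86-fold higher. As3mt, the arsenite methyltransferase, was 1.69-fold and 1.56-fold lower, and Tpmt, the thiopurine methyltransferase, 1.51-fold lower in KO. Of 15 of these genes above background, 1 was 2-fold higher in each genotype (beside 3.1% of all genes in WT and 1.68% in KO). In each genotype 0 were 2-fold lower (beside 3.01% and 1.18%).

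Of the regulators, Ahr, the aryl hydrocarbon receptor, read 9.19 without and 8.29 with fructose in WT, and 8.99 and 9.14 in KO. It was 1.87-fold lower with fructose in WT and 1.10-fold higher in KO, and WT fructose was its lowest array. The part of the regulators in the members' differences was not tested. Nr1i2 (PXR) was 1.73-fold lower in WT and 1.68-fold lower in KO, and Hnf4a 1.68-fold and 1.42-fold. Nr1i3 (CAR) was 1.22-fold higher in WT and, from a control value below background, at least 1.48-fold higher in KO. Bach1, a repressor of antioxidant genes, was 2.33-fold and 2.08-fold higher, and its partner Mafg 1.71-fold higher in WT. Nfe2l2 (NRF2) differed by 0.08 and -0.02. The listed regulators above background were 15 in WT and 16 in KO. In each genotype 1 was 2-fold higher (beside 3.1% of all genes in WT and 1.68% in KO) and 0 lower (beside 3.01% and 1.18%).

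Targets by which these receptors are commonly read were mixed. Cyp2b10, a CAR target, read 6.84 without and 9.84 with fructose in WT, and 7.84 and 10.20 in KO. It was higher with fructose in both genotypes, and higher in KO by 2.01-fold in control and 1.28-fold in fructose medium. The relation of these targets to the members was not tested. Hmox1 was 2.83-fold higher in WT and 2.63-fold in KO, whereas Nqo1, another NRF2 target, differed by -0.22 and -0.08. On the same list, Srxn1 differed by 0.51 in WT and 0.51 in KO, Gclm by 0.42 and 0.34, and Txnrd1 by -0.07 and 0.10. Tiparp, an aryl hydrocarbon receptor target, was 1.91-fold higher in WT, and Cyp1a1 and Cyp1b1 were below background on every array. Cyp1a2 differed with fructose by -0.08 in WT and 0.02 in KO. It was higher in KO by 1.33-fold in control and 1.42-fold in fructose medium. Cyp3a11, a PXR target, differed by 0.07 and 0.12. Cyp4a14, a PPAR alpha target, was higher in KO than in WT in both media, at least 1.96-fold in control and 2.72-fold in fructose medium. Cyp2c55 was 1.61-fold lower in KO in fructose medium. With fructose in KO, Cyp4a14 was 1.63-fold higher and Nr0b2, which fell below background, at least 1.30-fold lower. Of 13 targets above background, 2 were 2-fold higher with fructose in each genotype (Cyp2b10 and Hmox1), beside 3.1% of all genes in WT and 1.68% in KO. In each genotype 0 were 2-fold lower (beside 3.01% and 1.18%).

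Efflux pumps differed in both directions. Abcg2, which exports sulfate conjugates, read 8.89 without and 7.67 with fructose in WT, and 8.93 and 8.34 in KO, 2.32-fold and 1.51-fold lower. Abcc4, a pump of the basolateral membrane, was at least 2.31-fold lower in WT, where the fructose value was below background, and 2.02-fold lower in KO. Abcb11, the bile salt export pump, was 2.49-fold and 2.63-fold higher, and Abcb1b 1.71-fold higher in WT. Abcc2, the canalicular pump for glucuronide and glutathione conjugates, differed with fructose by -0.17 in WT and -0.12 in KO. Of 11 genes, 1 was 2-fold higher with fructose (beside 3.1% of all genes) and 2 lower (beside 3.01%) in WT. In KO 1 was higher (beside 1.68%) and 1 lower (beside 1.18%).

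**Figure D5:**
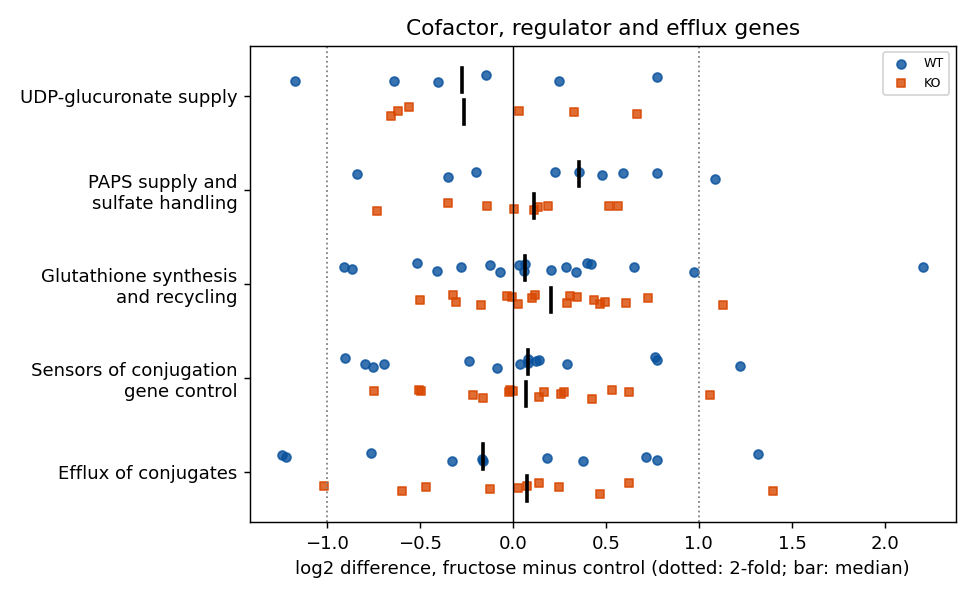
Points give the log2 difference, fructose minus control, of each gene above background in 5 lists of cosubstrate, regulator and efflux genes, for WT (circles) and KO (squares), and black bars are the list medians. Points lie on both sides of 0 in every list, and Chac1 at 2.21 in WT is the farthest from 0.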

How the data were processed

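Values were deposited as log2 signal for each probe set of a 1-colour whole-transcript array, from 400 ng of biotin-labelled total RNA per the labels. The submitters' processing notes name RMA and R 3.4.0; RMA gives the arrays like distributions, so a shift common to all genes cannot be seen. The sources used here do not give the annotation version or genome build. Of 41345 probe sets, 23521 have 1 gene symbol and 1814 several; all 52 members matched RefSeq by Entrez number. Genes with several probe sets were averaged. Differences were counted among genes above background on at least 1 array compared. A fold from a value below background is given against the background, as "at least". Levels of different genes come from different probes and are not set against each other. The number of arrays limits the precision. The counting at 2-fold was tested on simulated data in which only genes well above background were shifted. That test does not bear on values near background or on the 1.5-fold counts.

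All 4 values are given for members 2-fold different in a direct comparison and for the 2 with the highest mean in each family, differences for members at 1.5-fold, and list genes at 1.5-fold, at most 4 a list and comparison. Other named genes, and probe sets with several genes, were chosen after their values were seen. Members and lists were chosen with earlier results of these data known. Promoter windows were matched by symbol for 45 members; 5 motifs were searched on both strands, of which 1 is not reported here, and identity is the share of 300 bases identical in a global alignment with free end gaps. Python 3.11.15, pandas 2.3.3 and statsmodels 0.14.6 were used. Alternatives tried were 3 normalizations (array medians, quantiles again, loess with a span of 0.3), no filter or a filter 1 log2 unit stricter, values raised to the background, the brightest probe set, thresholds of 1.5-fold (with values raised to the background too, added after seeing the data) and 3-fold, the mean, and inclusion of probe sets naming several members.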

Additional observations from a re-analysis of the deposited data

Results flagged for a closer look

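Ugt2b37 had differences with fructose of -0.86 in WT and 0.09 in KO, a difference of effects of 0.94. It was not tested, with 1 array per group, and the WT fructose value was below background. With values raised to the background the differences were -0.07 and 0.09 and the difference of effects 0.16, so its size rests on a value below background.

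Probe sets that name several genes, which were outside the counts, also differed. That of Gsta1, Gm3776 and Gsta2 was -1.14 with fructose in WT, and 0.80 in KO minus WT in fructose medium. That of Gm3776, Gm10639, Gsta1 and Gsta2 was -0.73 and 0.62 in the same comparisons. Neither difference has a replicate check.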

How the results depend on the processing

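Of 95 values under alternative settings (the counts at 2-fold and the medians of 5 comparisons), 80 stayed within 1.5 times the reported count or 0.1 of the reported median; 3 of the 5 medians are within 0.1 of 0, so this says little of their sign. Without the dim filter, the members' median for fructose in WT turned from -0.16 to 0.0056; that setting adds the 20 members below background in that comparison. The mean was -0.09 for fructose in WT and 0.0005 in KO. The KO median of -0.05 was -0.10 with probe sets naming several members. At 1.5-fold the counts were 8 for fructose in WT, 9 in KO, 4 for KO against WT in control medium, 4 in fructose medium and 5 for the difference of effects. With values raised to the background as well, a setting chosen after seeing the data, they were 7, 8, 2, 3 and 4. At 3-fold they were 1 for fructose in WT and 0 in KO, and 0 for KO against WT in fructose medium. The 2-fold count in that last comparison, 2 as reported, was 1 with the stricter filter and 1 with values raised to the background, since Ugt2b37 is near background. The 25 member differences that read at least 1.5-fold, those with a value below background included, did so in 75 of 75 values under the 3 normalizations, moving by at most 0.04; this does not bear on the background. No paired analysis was possible because the groups share fewer than 2 replicate numbers, with 1 array each, and for the same reason no array could be left out. A fit of genotype and fructose without their interaction, which would take the interaction as error, was not run.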
